A study of Mus musculus with 26 samples.

Results

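The genes described are 9 members of the fibroblast growth factor (FGF) system in mouse embryonic stem cells: the ligands Fgf4, Fgf5, Fgf8, Fgf15 and Fgf17 and the receptors Fgfr1, Fgfr2, Fgfr3 and Fgfr4. They were chosen by name, as FGF ligands and receptors of early embryonic cells, out of 21774 protein-coding genes of the RefSeq annotation of GRCm38.p6, and all 9 were found there. The cells are E14, a line of mouse embryonic stem cells grown without feeders. In mESC+, the cells received fresh medium with leukemia inhibitory factor (LIF), which keeps them pluripotent, for the last 4 h before harvest. In mESC−, LIF was withdrawn and 1 µM retinoic acid (RA) was added for the same 4 h, so the loss of LIF and the addition of RA cannot be told apart. Each state has 3 RNA-seq libraries and 1 ATAC-seq library, and the dynamic enhancer regions rest on 8 ChIP-seq libraries (3 histone modifications and the input, 1 library each per state). The question is how the supply of FGF and its receptors stands after 4 h of RA.

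The genes lie on 6 chromosomes. Fgf4 (chr7:144861386-144865245, plus strand) and Fgf15 (chr7:144896532-144900953, plus strand) are neighbours, and Fgfr2 (chr7:130162451-130266808, minus strand) is on the same chromosome. Fgf5 (chr5:98254184-98277033) and Fgfr3 (chr5:33721724-33737068) are both on the plus strand. Fgf8 (chr19:45736491-45742941) and Fgf17 (chr14:70636203-70642268) are on the minus strand, and Fgfr1 (chr8:25518759-25575718) and Fgfr4 (chr13:55152818-55168759) on the plus strand. All positions here are RefSeq gene records of GRCm38.p6, and distances are taken from their 5′ ends.

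FGF ligands are secreted proteins that bind receptor tyrosine kinases on the cell surface together with heparan sulfate. The activated receptors recruit adaptors and switch on a kinase cascade that ends in ERK. In embryonic stem cells, Fgf4 made by the cells themselves drives ERK signalling and makes them competent to leave the naive state, and LIF works against that exit. RA enters the nucleus and binds retinoic acid receptors, which sit as dimers on DNA at direct repeats of a hexamer. Fgf8 is a textbook gene repressed by RA along the body axis of the embryo.

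3 short stretches near the FGF genes carried the motifs that were searched, and they are shown because 2 of them lie at peaks that only the RA list holds. A direct repeat was a pair of hexamers (AGGTCA or GGGTCA as well as AGTTCA or GGTTCA) spaced by 2 or 5 bases, searched on both strands without mismatch. A SOX2-OCT4 composite was CTTTGTT or CATTGTT followed, after at most 3 bases, by the octamer ATGCAAAT or ATGCTAAT. The capitals mark the match. The Fgfr4 stretch is the peak chr13:55136108-55136283, plus strand. The Fgf8 stretch is chr19:45747037-45747150, minus strand, and holds the peak that starts at 45747052. The Fgf4 stretch is chr7:144864388-144864417, plus strand, in the 3′ UTR of the gene. All sequences are from GRCm38.p6 and are written 5′ to 3′.
Fgfr4 upstream peak: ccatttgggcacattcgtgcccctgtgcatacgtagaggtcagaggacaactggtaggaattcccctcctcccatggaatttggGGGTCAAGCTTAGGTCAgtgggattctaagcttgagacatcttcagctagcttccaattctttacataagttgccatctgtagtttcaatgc
Fgf8 upstream peak: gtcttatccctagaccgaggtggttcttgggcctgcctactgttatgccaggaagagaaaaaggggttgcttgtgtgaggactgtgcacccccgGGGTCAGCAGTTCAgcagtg
Fgf4 composite site: aaaactCTTTGTTTGGATGCTAATgggata

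The repeat near Fgfr4 is spaced by 5 bases, starts 16.6 kb upstream of the gene and lies wholly inside its peak, outside annotated genes. In mESC−, this peak reached a fold enrichment of 6.95 and ranked at percentile 53.9. No peak of mESC+ overlapped it. It was also the strongest peak of the RA list alone within 100 kb of Fgfr4, and the closest annotated start of a coding gene was that of Gm46415, 7.98 kb away. Fold enrichment is the height of a peak over local background as MACS2 computed it for the authors, and percentiles are taken within each list because the libraries are not on a common scale.

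The repeat near Fgf8 is spaced by 2 bases and lies 4.12 kb upstream of the gene. Only 5 of its 14 bases fall inside the peak called there, whose fold enrichment of 3.60 in mESC− was at percentile 2.91 of its list. That peak is among the weakest of the library, and no peak of mESC+ overlapped it. The composite site of Fgf4 lies 3.01 kb downstream of the gene start, in a peak present in both lists. Its fold enrichment was 3.82 (percentile 5.08) in mESC+ and 3.16 (percentile 0.595) in mESC−, so it was weak in both libraries. SOX2 and OCT4, which bind such composites as a pair, are core factors of pluripotency.

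Within 100 kb of the 9 genes, the direct repeat was found in 0 of 279 windows of 300 bp around the summits of the LIF list, which allows a share of up to 1.08%, and in 2 of 249 windows of the RA list. Over the whole lists, it was found in 0.597% of the LIF windows and in 0.941% of the RA windows, so its share near the FGF genes was near the background. Across the genome, it was held by 2.57% (95% Clopper-Pearson interval 2.36 to 2.80) of the RA peaks without a partner in the LIF list and by 0.675% (0.629 to 0.722) of those with a partner. These intervals cover counting error over windows only. The composite was found in 1 window near the FGF genes in each list, both times at the Fgf4 site shown above. That is 0.358% of the LIF windows and 0.402% of the RA windows near these genes. Over the whole lists, it was found in 0.0171% of the LIF windows and 0.0163% of the RA windows. The local shares rest on 1 site. A match is a run of letters, not a bound site.

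The RNA-seq table held 3 of the 9 genes, namely Fgf15, Fgf17 and Fgfr4, while it held 9.02% of all protein-coding genes. It lists 2189 genes, limited by the adjusted p of the authors' own comparison of the states, and gives a mean over all 6 libraries but no value per library. The direction of change is therefore not analysed here. A gene that is not listed may still be expressed: Pou5f1 and Nanog, which define pluripotent cells, are not listed either. Of the 6 embryonic stem cell markers, 3 are listed (Sox2, Zfp42 and Tdgf1), with the authors' means between 8169 and 18458 normalized counts. Of 13 markers of primitive endoderm, mesoderm, neural cells and feeder fibroblasts, 3 are listed (Gata6, Eomes and Thy1), with means between 54.1 and 309 normalized counts, and their part in the results was not tested.

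Among the ligands, Fgf17, a close relative of Fgf8, had the highest level of the 3. The authors' mean was 953 normalized counts, which is 564 per kb of exon. Fgf15, the mouse counterpart of human FGF19, had a mean of 299 normalized counts, or 165 per kb. Fgf4, Fgf5 (a marker of primed pluripotency) and Fgf8 are not listed. Among the receptors, only Fgfr4 is listed, with a mean of 83.9 normalized counts, or 26.7 per kb. Within the table, these means stood at percentile 59.1 for Fgf17, 35.4 for Fgf15 and 16.7 for Fgfr4. Since the table has no spread over libraries, no error can be given for the order of these levels.

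Every FGF gene had an ATAC-seq peak within 1 kb of its start in mESC+, and 7 of the 9 had one in mESC−. Such a promoter peak was present in 66.2% of all protein-coding genes in the LIF list and in 64.9% in the RA list. The genes without one in the RA list were Fgf8 and Fgf17, both ligands. Within 2500 bp of the start, 8 of the 9 had a peak in the RA list. Fgf17 had a peak of both lists 2.12 kb downstream of its start, with a fold enrichment of 4.25 in mESC+ and 4.22 in mESC−. Its absence from the RA list thus depends on the 1-kb window. A promoter peak in the LIF list alone was found for 2.14% of all protein-coding genes, and in the RA list alone for 0.822%, a class that holds none of the 9 genes. ATAC-seq maps open DNA by transposase insertion, and each state has 1 library, so no difference between the states has a replicate check. A peak that is missing from a list was below the threshold of the peak caller, which does not show that the site was closed.

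**Figure D1:**
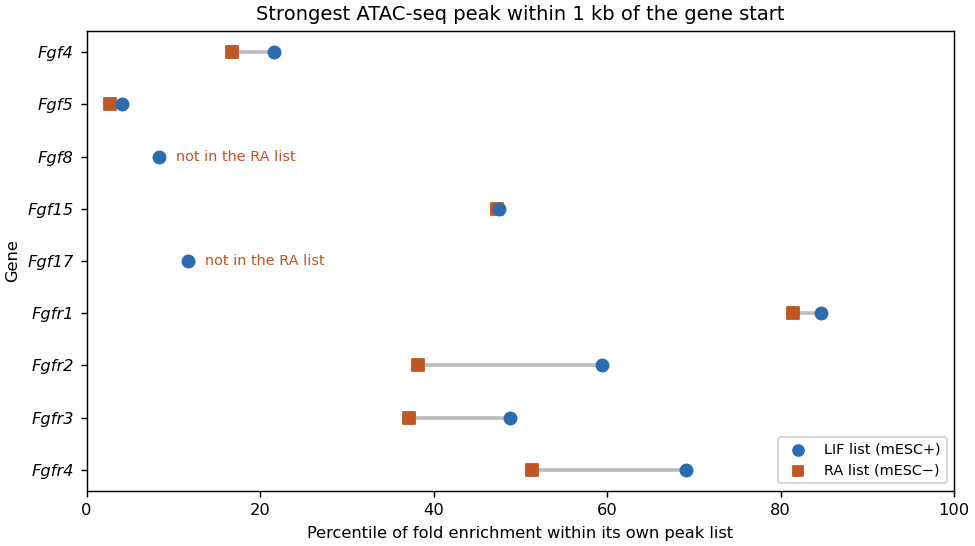
The strongest promoter peak of each gene is placed by the percentile of its fold enrichment within the LIF list (circles) and the RA list (squares), with 1 library per state. Fgf8 and Fgf17 have a circle only, at percentiles 8.36 and 11.6, and for the other 7 genes the square lies left of the circle. Percentiles are not centred, and their median over all peaks found in both lists was 62.6 in the LIF list and 57.8 in the RA list.

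The promoter peaks of Fgf8 and Fgf17 in mESC+ were weak. The stronger Fgf8 peak (chr19:45743086-45743215, 187 bp upstream of the gene start) had a fold enrichment of 3.99 and a −log10 q of 4.99. A neighbouring peak, 399 bp upstream, reached 3.27. The Fgf17 peak (chr14:70642200-70642401, summit 18 bp upstream of the start) had a fold enrichment of 4.28 and a −log10 q of 8.32. Both sequences are shown because they are the promoters whose presence differed between the lists. The Fgf8 stretch is the whole peak, and the Fgf17 stretch is the part upstream of the transcript (chr14:70642269-70642401). Both are on the minus strand, and the capitals mark the 11 bases around the summit.
Fgf8 promoter peak: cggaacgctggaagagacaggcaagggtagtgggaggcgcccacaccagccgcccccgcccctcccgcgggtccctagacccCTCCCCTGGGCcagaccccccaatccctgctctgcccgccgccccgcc
Fgf17 promoter peak: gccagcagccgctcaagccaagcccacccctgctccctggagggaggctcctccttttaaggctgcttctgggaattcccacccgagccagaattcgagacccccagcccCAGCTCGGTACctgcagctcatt

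The promoters of these genes differ in base composition. From 250 bases before to 50 bases after the gene start, Fgf8 had a GC content of 83.3%, at percentile 99.8 of all coding genes, and 33 CpG dinucleotides. Fgf17 had 59.0% GC and 6 CpG, an observed-to-expected CpG ratio of 0.236 against a median of 0.474 over all genes. Fgf4 (69.7% GC, 28 CpG) and Fgf5 (68.3%, 29 CpG) are rich in CpG as well, while Fgf15 (62.7%, 19 CpG) lies between. Of the receptors, Fgfr3 had 69.7% GC and 26 CpG, Fgfr4 65.3% and 20, and Fgfr1 62.0% and 18. Fgfr2 had the lowest GC content and the fewest CpG of the 9, with 43.7% and 4. In mESC+, the summits of the Fgfr2 promoter peak (463 bp downstream of the start) and the Fgf15 one (483 bp upstream) lay outside this window. The base composition at those summits was not measured. By the observed-to-expected ratio, Fgf17 was the lowest, followed by Fgfr2 with 0.282.

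The promoter peaks of the other ligands differed little in height between the libraries. Ratios of fold enrichment were taken as log2 of RA over LIF and centred on the median over all 117520 peaks found in both lists, which was −0.09. Fgf4, the main FGF of embryonic stem cells, had 4.84 in mESC+ and 4.71 in mESC−, a centred log2 ratio of 0.05. Fgf15 had 6.35 and 6.48, a centred ratio of 0.12. Fgf5 had 3.70 and 3.56, a centred ratio of 0.04, but these were separate peaks. The RA peak overlapped a weaker LIF peak of 3.31 in the same promoter, and this pair, set side by side after the values were seen, had a centred ratio of 0.20. Without centring, Fgf4 turns to −0.0390 and the strongest peaks of Fgf5 to −0.0545, while the overlapping pair of Fgf5 stays at 0.11. By percentile, the strongest peaks of all 3 stood lower in the RA list, so the direction at these promoters depends on the measure. Percentiles are not centred, however. Over all peaks found in both lists, the median percentile was 62.6 in the LIF list and 57.8 in the RA list.

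All 4 receptors had a lower promoter peak in mESC−, though by little at Fgfr1 and Fgfr3. Fgfr1, the FGF receptor that embryonic stem cells mainly use, had the strongest promoter peak of the 9 genes, with a fold enrichment of 11.8 (percentile 84.7) in mESC+ and 10.6 (81.4) in mESC−. Its centred log2 ratio was −0.06. Fgfr2, which carries FGF signals in the primitive endoderm, had 7.46 (percentile 59.5) and 5.91 (38.3), a centred ratio of −0.24. Fgfr3 had 6.52 (percentile 48.8) and 5.82 (37.2), a centred ratio of −0.07. The Fgfr3 peaks overlap, but the summit lay 25 bp upstream of the start in mESC+ and 473 bp downstream in mESC−. Fgfr4 had the lowest centred ratio of the 7 genes, −0.31, with 8.73 (percentile 69.1) and 6.60 (51.3). None of the 7 ratios between the strongest peaks, which ran from −0.31 to 0.12, passed 1.5-fold. Over all peaks found in both lists, the quartiles of the centred ratio were −0.21 and 0.19. The ratios of Fgfr1 and Fgfr3 lay between these quartiles, and those of Fgfr2 and Fgfr4 below them. Of the RA targets, 3 had a promoter peak in both lists, with centred ratios of −0.17 for Dhrs3, −0.12 for Cyp26a1 and 0.0018 for Stra8. The Cyp26a1 summit lay 207 bp downstream of the start in mESC+ and 79 bp upstream in mESC−. By percentile of −log10 p, the RA list minus the LIF list gave −1.23 for Dhrs3, 5.14 for Cyp26a1 and 12.4 for Stra8. For the 4 receptors, this difference ran from −18.4 (Fgfr2) to −1.82 (Fgfr1). For the ligands Fgf4, Fgf5 and Fgf15, it ran from −7.44 (Fgf5) to −5.61 (Fgf15), so all 7 genes were lower by this measure.

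The surroundings of the FGF genes were compared next. Within 100 kb, the number of peaks in mESC+ and mESC− was 42 and 38 for Fgf4, 27 and 23 for Fgf5, 38 and 28 for Fgf8, 36 and 34 for Fgf15, and 33 and 27 for Fgf17. For the receptors, it was 41 and 42 for Fgfr1, 31 and 24 for Fgfr2, 31 and 31 for Fgfr3, and 36 and 36 for Fgfr4. Fgf8 had the lowest ratio of RA to LIF peaks (0.737) and Fgfr1 the highest (1.02). Fgf4 and Fgf15 start 35.1 kb apart and share 38 merged peaks, which were counted as 1 set in all sums. Over all loci, there were 279 peaks of the LIF list, which holds 163484, and 249 of the RA list, which holds 141465.

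**Figure D2:**
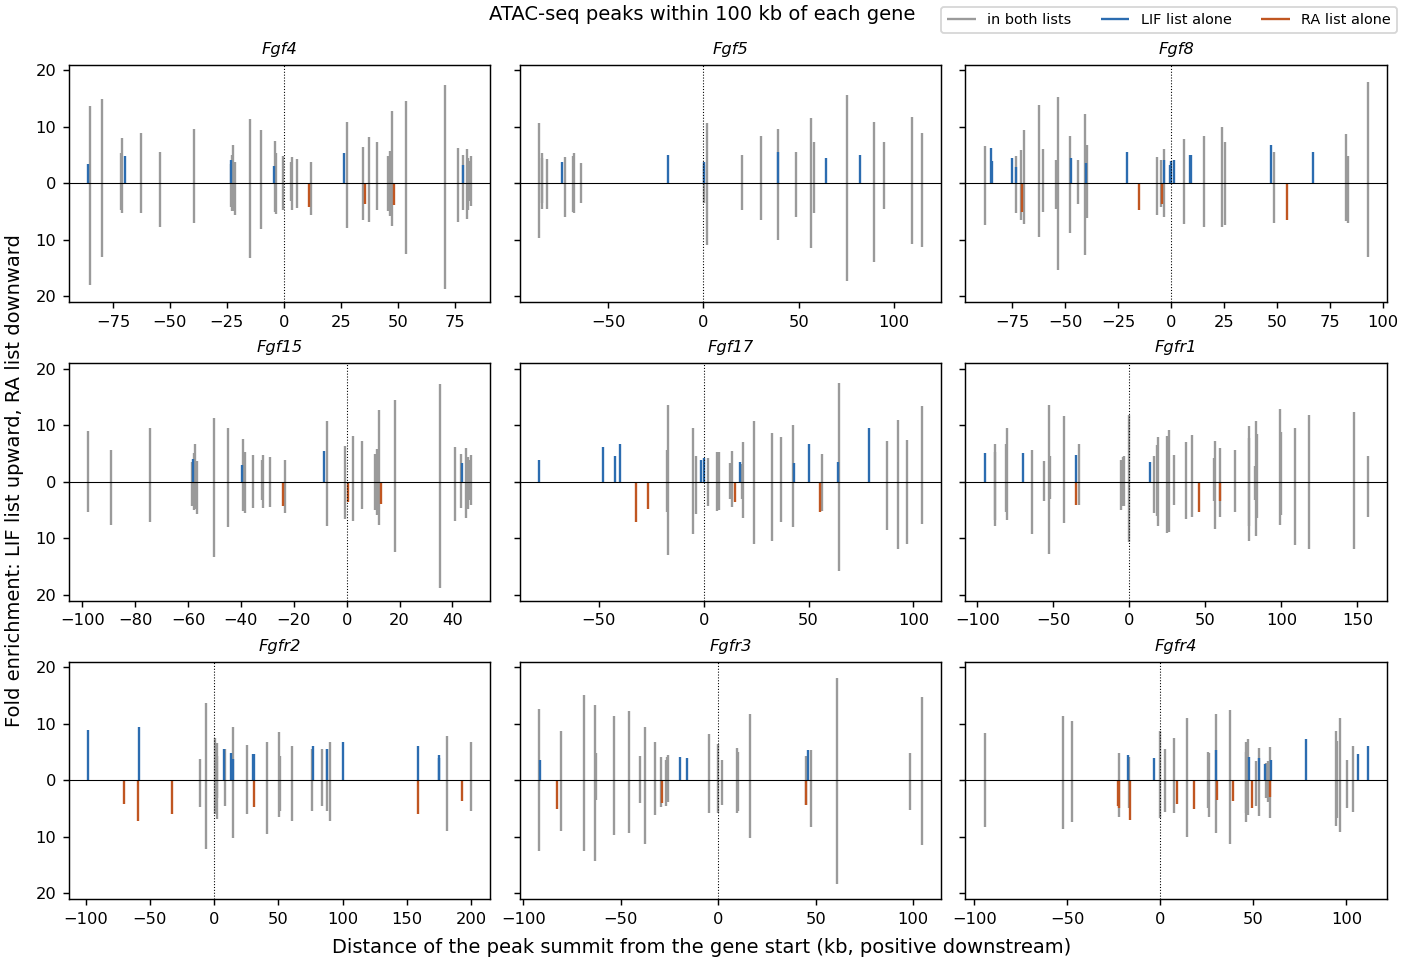
Each line is a merged ATAC-seq peak, placed by the distance of its summit from the gene start in kb, with its fold enrichment in the LIF list drawn upward and in the RA list downward, 1 library each. The tall lines are grey, meaning that they are present in both lists, and the lines of 1 list alone stay at or below 9.55.

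For 7 of the 9 genes, the strongest peak within 100 kb lies closer to the start of another coding gene. Near Fgf4 and Fgf15, the strongest peak in both lists was in the 3′ UTR of Ccnd1, which encodes cyclin D1 (fold enrichment 17.4 in mESC+ and 18.7 in mESC−). Near Fgf5 it was 0.382 kb inside Cfap299 (15.6 and 17.2), near Fgf17 at the start of Nudt18 (17.6 and 15.8), and near Fgfr3 at the start of Letm1 (18.1 and 18.3). For Fgfr1 and Fgfr2, the closest coding start was their own. The Fgfr1 peak lies 53.1 kb upstream of the gene, with 13.7 and 12.7. The Fgfr2 peak lies 6.52 kb upstream, with 13.7 and 12.1, at percentiles 90.9 and 87.8. These strongest peaks of the 2 receptors had centred ratios of −0.01 and −0.09.

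After merging, the loci held 307 peaks, of which 206 were present in both lists, 69 in the LIF list alone and 32 in the RA list alone. The LIF-alone share was 22.5% (95% Clopper-Pearson interval 17.9 to 27.6) against 23.7% of all merged peaks. The RA-alone share was 10.4% (7.24 to 14.4) against 11.0%. Both shares were near the background. At the ligands, 38 of 149 merged peaks were in the LIF list alone (25.5%, 18.7 to 33.3) and 11 in the RA list alone (7.38%, 3.74 to 12.8). At the receptors, these were 31 (19.6%, 13.7 to 26.7) and 21 (13.3%, 8.42 to 19.6) of 158. Each of these intervals covers the share over all merged peaks.

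**Figure D3:**
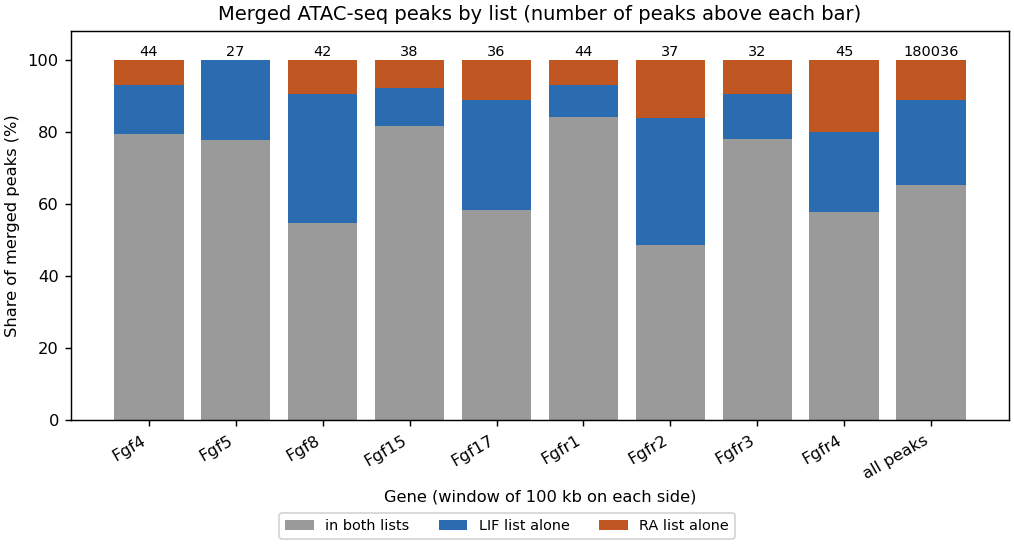
Bars show the share of merged ATAC-seq peaks (in percent, 1 library per state) found in both lists, in the LIF list alone or in the RA list alone, with the number of merged peaks above each bar. Fgf8 and Fgf17 have 15 and 11 LIF-alone peaks against 4 RA-alone peaks each, and Fgf5 has no RA-alone peak.

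Among single genes, Fgf8 had 15 LIF-alone and 4 RA-alone peaks of 42, Fgf17 had 11 and 4 of 36, and Fgf5 had 6 and 0 of 27. Fgfr2 had 13 and 6 of 37, the lowest share of common peaks (18 of 37). Fgfr4 was almost even, with 10 and 9 of 45, and had the most RA-alone peaks. Fgf4 had 6 and 3 of 44, Fgf15 4 and 3 of 38, Fgfr1 4 and 3 of 44, and Fgfr3 4 and 3 of 32. In peaks whose closest coding start is the gene itself, the 9 genes together had 29 LIF-alone and 12 RA-alone peaks of 114 (25.4% and 10.5%), again near the background. By gene, Fgf8 had 5 and 0 of 9, Fgf17 2 and 0 of 5, Fgf5 2 and 0 of 6, and Fgf4 and Fgf15 1 and 1 each, of 10 and 6. Fgfr2 had 13 and 6 of 37, Fgfr1 2 and 1 of 19, Fgfr3 2 and 1 of 13, and Fgfr4 1 and 2 of 9.

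Peaks of 1 list alone were weak. Their median percentile was 15.9 in the LIF list and 15.1 in the RA list, against 51.0 and 46.3 for the peaks present in both. The same held over all merged peaks, with 26.3 and 18.9 against 62.6 and 57.8. A −log10 q of at least 10 was reached by 3 of the 69 LIF-alone peaks and by 0 of the 32 RA-alone peaks, but by 119 and 93 of the 206 common ones. The strongest LIF-alone peaks lay 58.1 kb upstream of Fgfr2 (chr7:130324804-130324979) and in an intron of Hr, 78.8 kb downstream of the start of Fgf17 (chr14:70563307-70563509). Both had a fold enrichment of 9.55, percentile 74.4. The strongest RA-alone peaks lay 59.3 kb upstream of Fgfr2 (chr7:130326006-130326185) and in an intron of Xpo7 near Fgf17 (chr14:70674480-70674612), both at 7.11, percentile 56.3. Such ties are common, since many fold enrichments fall on whole steps, of 0.562 in the LIF list and 0.593 in the RA list. Of the peaks, 32.4% and 29.8% lie within 0.001 of a whole step. The repeat-bearing peak of Fgfr4 shown above ranked just below these RA-alone peaks.

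Few peaks present in both lists differed in height past 1.5-fold. Of 206, 7 were more than 1.5-fold higher in mESC− and 6 more than 1.5-fold higher in mESC+. That is 3.40% and 2.91%, against 4.05% and 4.61% of all common peaks, so again near the background. Without centring, the counts were 3 and 10, so the balance between the directions depends on it. The median centred log2 ratio was 0.05, and by gene it ran from 0.02 at Fgfr1 to 0.11 at Fgf5. Only 2 of the 13 peaks past 1.5-fold had an FGF gene of the 9 as the closest coding start. At Fgf4, the peak chr7:144873200-144873524 was higher in mESC− (3.85 and 5.58, centred ratio 0.63). At Fgfr1, the peak chr8:25485661-25485831 was lower in mESC− (6.74 and 4.15, centred ratio −0.61).

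**Figure D4:**
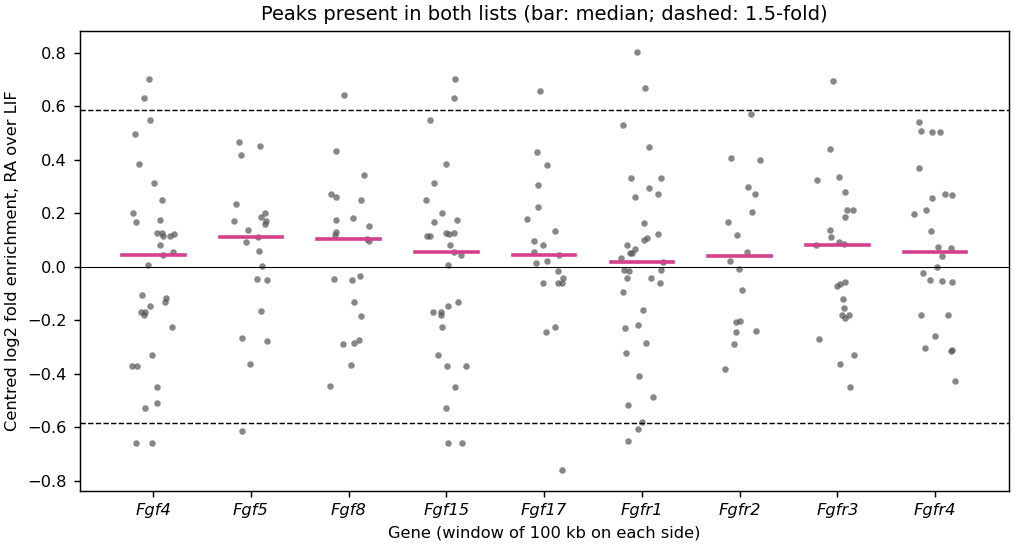
Each point is an ATAC-seq peak present in both lists, plotted by its centred log2 ratio of fold enrichment (RA over LIF), with the median as a bar and 1.5-fold as dashed lines. The points of all 9 genes spread around 0, from −0.76 near Fgf17 to 0.80 near Fgfr1.

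The largest ratio at each gene was mostly at a neighbour. Near Fgf17, peaks at Lgi3 (−0.76) and at the start of Reep4 (0.66) went in opposite directions. Near Fgf8, the peak 0.839 kb inside Fbxw4 had 0.64. Near Fgf4 and Fgf15, the peak in an intron of Fgf3, another FGF ligand gene, had 0.70, and a peak 12.4 kb downstream of the start of Fgf15 had −0.66. The latter had a fold enrichment of 12.8 in mESC+ and 7.60 in mESC−, and its closest coding start was LTO1, 6.22 kb away. At Fgfr1, an intergenic peak 63.8 kb upstream had the highest ratio of all, 0.80 (5.62 and 9.18). At Fgfr2, no peak passed 1.5-fold, and the extremes were −0.38 and 0.57, both in its own introns. At Fgfr4, the extremes were −0.43 and 0.54, both in introns of Zfp346.

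No dynamic enhancer region was found near any FGF gene. These are regions whose enhancer probability, a fraction from 0 to 1 that the authors computed from histone modifications, differs between the states. The list holds only regions past the paper's default minimum difference, and the paper reports many more regions at a lower minimum. Smaller changes near the FGF genes are therefore not covered. Of the 327 regions, 0 lay within 100 kb of the 9 genes, and 0 within 500 kb. Of all protein-coding genes, 4.57% have such a region within 100 kb and 16.4% within 500 kb. A count of 0 of 9 genes within 100 kb is thus near the background. The closest region was 1.27 Mb from Fgfr1, next to Zfp703, and its probability was 0.990 in mESC− but 0 in mESC+. The farthest was 7.30 Mb from Fgfr4. By comparison, 2 of 4 RA target genes had a region within 100 kb: Stra8 and Dhrs3 had 1 each, both with the higher probability in mESC−.

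The other genes of the pathway, taken from lists, were listed in the RNA-seq table as follows. Of 17 other ligands, 3 are listed, namely Fgf1, Fgf10 and Fgf18, with the authors' means of 201, 81.7 and 63.5 normalized counts. Of 6 co-receptors and receptor partners, such as the klothos, 0 are listed. Of 15 genes of heparan sulfate, 5 are listed: Ext1, which elongates the chain, Hs2st1 and Hs6st1, which add sulfate, and the glypicans Gpc3 and Gpc4. Of 17 adaptors and kinases, 1 is listed, the kinase Braf. Of 12 feedback and target genes, 5 are listed: the inhibitors Spry2, Spred2, Dusp6 and Il17rd and the transcription factor Etv4. By contrast, all 4 RA targets (Cyp26a1, Rarb, Stra8 and Dhrs3) are listed. Each share is to be read beside the 9.02% over all protein-coding genes, and the direction of change of these genes is not analysed here.

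**Figure D5:**
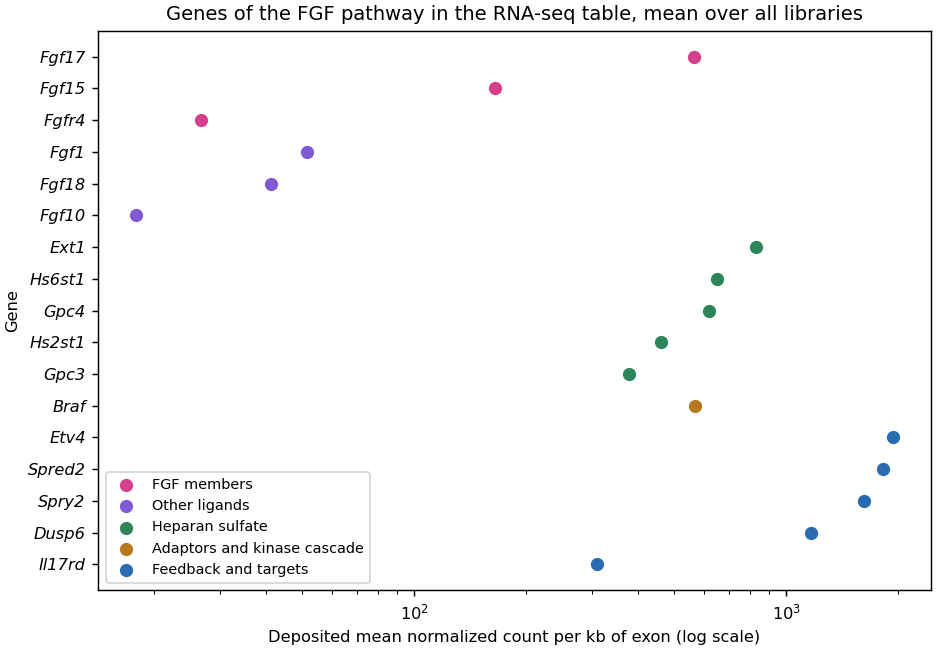
Points give the authors' mean normalized count over all 6 libraries divided by the exon length in kb (log axis) for the listed genes of the FGF pathway. The 3 ligands Fgf1, Fgf10 and Fgf18 lie at 51.4, 17.9 and 41.1 per kb, and 4 of the 5 feedback and target genes lie above 1000.

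Per kb of exon, 4 of the 5 listed feedback and target genes had the highest levels of the listed pathway genes. Etv4 had 1935 normalized counts per kb, Spred2 1817, Spry2 1617 and Dusp6, the ERK phosphatase, 1164, while Il17rd had 309. The heparan sulfate genes ran from 377 (Gpc3) to 828 (Ext1) per kb. Braf had 567 per kb. The listed ligands other than Fgf17 were all below 200 per kb. With 1 mean per gene, no error can be given for this order.

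Promoter peaks in the pathway lists were nearly the same in both states. All 17 adaptors and kinases and all 12 feedback and target genes had a promoter peak in both lists. Of the 15 heparan sulfate genes, 14 had one in both lists, and Sdc3 had one in the RA list alone. Of the 17 other ligands, 10 had one in both lists, Fgf14 and Fgf18 in the LIF list alone, and 5 in neither. Together with Fgf8 and Fgf17, 4 of all 22 FGF ligand genes had a promoter peak in the LIF list alone and 0 in the RA list alone, beside the shares of 2.14% and 0.822% given above. This sum over all ligands was made after the values were seen, and with 1 library per state it has no replicate check.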

How the data were processed

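For RNA-seq, the authors counted reads per gene and compared the states with DESeq2. Of the deposited table, only the mean normalized signal over all libraries was used. Its log2 fold changes, standard errors, test statistics and p-values are the authors' own comparison and were not used, nor were the p-values and clusters of the dynamic regions. The enhancer probability of a dynamic region, a fraction from 0 to 1 per state, was computed by the authors with CRUP. For ATAC-seq, reads were aligned by the authors to GRCm38 (BWA-MEM), freed of duplicates (SAMtools) and used to call peaks (MACS2, parameters not given in the sources used here), library by library. Each deposited peak has a fold enrichment, a ratio over local background, and a p-value and q-value as −log10. Read totals are unknown, so the depth behind a peak cannot be stated, and intervals cover counting error over peaks only.

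Ensembl identifiers were matched to symbols (2188 of 2189). Gene starts, exons and sequences came from RefSeq GRCm38.p6, and exon lengths from the union of curated transcripts. Peaks of both lists were merged at an overlap of 1 bp. Percentiles rank fold enrichment within a list. Equal fold enrichments can have unequal percentiles in the 2 lists. Annotation of a peak refers to its summit. The named peaks are the promoter peak, the strongest in each list, the strongest of each list alone and the largest ratios each way. Since the table gives no value per library and ATAC-seq has 1 library per state, no test was run. For 2 genes of the lists, no result is reported here. The members and lists were chosen with earlier results of these data known. On simulated peaks, 8 of 8 checks of the functions passed. The tools were Python 3.11.15, pandas 2.3.3, NumPy 2.4.6, matplotlib 3.10.9 and SciPy 1.17.1.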

Additional observations from a re-analysis of the deposited data

How the results depend on the processing

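No paired analysis was possible because no value per RNA-seq library was used and ATAC-seq has 1 library per state, and for the same reason no replicate could be left out. Of 72 alternatives, 43 stayed within 1.5 times the main count or kept the direction. Genes with a promoter peak numbered 5 in the LIF list and 5 in the RA list among the strongest 100000 peaks. At a −log10 q of at least 10, they numbered 6 in the LIF list and 3 in the RA list. Peaks within 20 kb numbered 117 and 102 (LIF and RA list), with 28 LIF-alone and 13 RA-alone peaks. At a −log10 q of at least 10 these counts were 123, 93, 3 and 0. Among the strongest 100000 peaks they were 137 and 144, with 23 LIF-alone and 30 RA-alone peaks. The excess of LIF-alone peaks thus did not hold when both lists were cut to equal size. Within 200 kb, there were 104 LIF-alone and 46 RA-alone peaks. Common peaks past 1.5-fold numbered 3 (higher in RA) and 10 (higher in LIF) without centring, 0 and 0 at 2-fold, and 3 and 3 within 50 kb. The direct repeat was in 1 RA peak when whole peaks were searched. The promoter difference turned negative for Fgf4 without centring (−0.0390), by percentile of fold enrichment (−4.79) and by percentile of −log10 p (−6.54). It did so for Fgf5 (−0.0545, −1.37 and −7.44) and, by both percentiles, for Fgf15 (−0.28 and −5.61). Neither percentile is centred, and the median percentile of fold enrichment over all common peaks was 62.6 in the LIF list and 57.8 in the RA list. With overlapping peaks only, an alternative chosen after seeing the data, Fgf5 had 0.199. The 4 receptors kept their direction under these 3 measures. The cause was not tested.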
